A study of Mus musculus with 2 samples.

Results

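The immunoglobulin heavy chain variable segments, the Ighv genes, were examined in plasma cells and B cells of the mouse aorta. All 185 rows whose symbol begins with Ighv were taken, of 32285 rows in the count tables. They were counted in barcodes with at least 500 detected genes and at most 15% mitochondrial UMIs (unique molecular identifiers, each standing for a captured transcript). A barcode was a plasma cell with at least 20 UMIs of Jchain plus Mzb1, which serve antibody assembly and secretion, and otherwise a B cell with at least 2 UMIs of Cd79a plus Cd79b, the signalling chains of the B cell receptor. The series has 2 droplet libraries of aortic leukocytes that carry CD45, the surface protein of white blood cells. The first comes from mice given ZnDPA@siIRF5, whose name denotes a small interfering RNA to the transcription factor IRF5, and is called the treated library. The second comes from a control group and is called the control library. The labels give no strain, genotype, age, diet, number of pooled animals or content of the control treatment. With 1 library per group there is no replicate and no test. Each difference is between 2 libraries, and intervals are 95% intervals of counting error only. UMIs of the same cell and cells of the same clone are not independent, so these intervals are narrower than the true uncertainty.

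A heavy chain gene is built in the developing B cell by joining a V segment to a D and a J segment, and the joined exon is transcribed together with a constant region. Each B cell keeps a productive heavy chain from a single allele and passes it to its daughters, so plasma cells of the same clone carry the same V segment. After activation, cells can switch the constant region from Ighm to an IgG, IgA or IgE gene without changing the V segment, and can mutate the V exon. The V exon lies at the 5′ end of the transcript, while the libraries counted the 3′ end.

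All 185 Ighv identifiers were found in GENCODE vM21 on the mouse assembly GRCm38, also called mm10. The locus spans chr12:113572927-116010093 on the minus strand, with the D segments beyond its low-coordinate end. Of the rows, 113 are annotated as functional V genes, 70 as V pseudogenes and 2 as IG_LV_gene. The last 120 bases of the annotated transcripts are shown for the segments on which the usage results turn, 5′ to 3′. Capitals mark TGT, the codon of the conserved cysteine just before the junction with D. The first 4 were among the 5 most used in the treated library.
Ighv1-26: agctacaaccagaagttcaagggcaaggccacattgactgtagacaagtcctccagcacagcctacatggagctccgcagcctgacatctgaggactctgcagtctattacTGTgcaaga
Ighv14-4: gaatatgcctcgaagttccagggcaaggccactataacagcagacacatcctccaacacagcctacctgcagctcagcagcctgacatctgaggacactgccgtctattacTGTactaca
Ighv1-9: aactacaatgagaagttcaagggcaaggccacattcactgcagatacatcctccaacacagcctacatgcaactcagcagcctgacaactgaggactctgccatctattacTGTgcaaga
Ighv10-1: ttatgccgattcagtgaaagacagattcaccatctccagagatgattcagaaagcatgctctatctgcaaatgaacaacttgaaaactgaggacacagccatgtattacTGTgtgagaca

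The next 4 were, beside Ighv1-26, the most used in the control library.
Ighv1-81: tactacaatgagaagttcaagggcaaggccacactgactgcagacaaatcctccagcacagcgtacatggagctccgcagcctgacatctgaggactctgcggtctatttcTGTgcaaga
Ighv3-6: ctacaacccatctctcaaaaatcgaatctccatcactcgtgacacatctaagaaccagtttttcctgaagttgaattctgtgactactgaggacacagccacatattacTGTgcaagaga
Ighv8-8: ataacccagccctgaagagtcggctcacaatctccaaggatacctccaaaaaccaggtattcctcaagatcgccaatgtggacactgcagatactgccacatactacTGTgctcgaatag
Ighv1-55: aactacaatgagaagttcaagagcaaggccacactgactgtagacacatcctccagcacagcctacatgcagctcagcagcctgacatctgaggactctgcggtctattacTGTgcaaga

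Ighv1-19, whose end is the most like that of Ighv1-26 among the segments named here, shows how close copies can be.
Ighv1-19: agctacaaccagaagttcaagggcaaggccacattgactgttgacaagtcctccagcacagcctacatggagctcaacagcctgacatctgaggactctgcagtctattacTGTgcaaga
It was 97.5% identical to Ighv1-26 over these 120 bases, while Ighv1-81 was 91.7% and Ighv8-8 58.1% identical to Ighv1-26. The motif TANTNNTGT, read on the coding strand within the last 60 bases, was found in 107 of 113 functional segments (94.7%) and in 41 of 70 pseudogenes (58.6%). Reads of close copies cannot always be told apart. Of all 50-base windows of Ighv1-26, 51.0% occurred in no other Ighv transcript, against 88.4% for Ighv1-81, 78.8% for Ighv14-4 and 7.49% for Ighv1-72, which was 99.3% identical to Ighv1-62-3 over the last 290 bases.

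The treated library kept 12466 of 13155 barcodes and the control library 12038 of 12516. Plasma cells numbered 497 and 1565, which is 3.99% and 13.0% of kept barcodes, and B cells 1097 and 1901. The median depth of plasma cells was 18174 and 18075 UMIs, and that of B cells 5351 and 4611. Of the markers that the gates did not use, Sdc1, the plasma cell surface proteoglycan, had a UMI in 68.4% and 66.4% of plasma cells against 2.19% and 1.53% of B cells, while Pax5, the B cell identity factor, had a UMI in 12.1% and 17.0% of plasma cells against 71.1% and 68.7% of B cells. Other B cell genes separated the classes less: Ms4a1, the surface protein CD20, had a UMI in 33.8% and 41.6% of plasma cells, against 84.4% and 82.4% of B cells, and the 8 B cell markers, Cd79a and Cd79b of the gate included, summed to a median of 11 and 11 UMIs per plasma cell against 17 and 14 per B cell. Mef2b, a factor of germinal centre B cells, had a UMI in 38.6% and 45.2% of plasma cells against 9.12% and 12.6% of B cells. Of the plasma cells, 464 and 1533 also met the B cell gate and were kept as plasma cells, 43 and 97 lay just inside the gate at 20 to 29 UMIs, and 99 and 190 barcodes lay just outside at 10 to 19. Markers of other cells were present: all 7 macrophage markers had UMIs, with a mean of 11.7 and 4.94 summed UMIs per plasma cell (median 2 and 1), all 5 neutrophil markers, with a mean of 23.6 and 16.3 (median 2 and 2), and all 7 T cell markers, with a mean of 1.75 and 1.45 (median 0 and 0). At least 3 UMIs of T cell, macrophage or neutrophil markers were in 365 of the 497 and 891 of the 1565 plasma cells, and for the named segments each UMI ratio that moved without these barcodes is also given. The libraries shared 45 barcodes, none of them a plasma cell in both.

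Ighv transcripts were almost as frequent in plasma cells of the treated library as in those of the control library. The treated library held 1737 Ighv UMIs in plasma cells and the control library 5500, that is 181 and 177 CPM, the count scaled to the total UMIs of the class (intervals 172 to 189 and 173 to 182). The log2 ratio, treated over control, was 0.03 (-0.05 to 0.11). Per 1000 UMIs of heavy chain constant genes there were 1.88 and 1.79 Ighv UMIs. An Ighv UMI was found in 71.0% and 74.3% of plasma cells, at least 3 in 42.1% and 44.0%, and the median plasma cell held 2 in each library. The libraries thus differed in how many plasma cells they held and in which segments those cells used. Over all plasma cells together, the amount of Ighv RNA per UMI differed by no more than counting error. By the largest constant gene of the cell, Ighv UMIs per 1000 constant UMIs were less alike. They were 1.38 and 1.19 for Ighm, 2.14 and 1.92 for Ighg1, 3.32 and 1.82 for Ighg2b, and 2.11 and 1.29 for Igha. Ighg2c (2.37 and 2.51) and Ighg3 (0.868 and 1.69) went the other way.

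B cells held far fewer Ighv UMIs, 28 in the treated and 91 in the control library, or 3.81 CPM (2.53 to 5.51) and 7.88 CPM (6.35 to 9.68). The log2 ratio was -1.05 (-1.72 to -0.42), and -0.37 without barcodes carrying 3 UMIs of markers of other cells. An Ighv UMI was seen in 2.46% and 4.26% of B cells. Cells with T cell markers, which should lack Ighv transcripts, held 0.734 CPM (0.391 to 1.26) at a median depth of 4716 UMIs and 4.02 CPM (3.21 to 4.97) at 4010, so the background was higher in the control library too. With each cell thinned to 2000 UMIs, which left out 22 and 32 shallower B cells, the expected share with an Ighv UMI was 0.909% and 1.53% in B cells and 0.235% and 0.777% in barcodes outside both gates. In CPM, without thinning, B cells exceeded those outside barcodes 3.96-fold (2.43 to 6.31) in the treated and 2.27-fold (1.73 to 2.95) in the control library. The plot of Ighv UMIs by cell class shows the order of classes and the raised background of the control library.

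**Figure D1:**
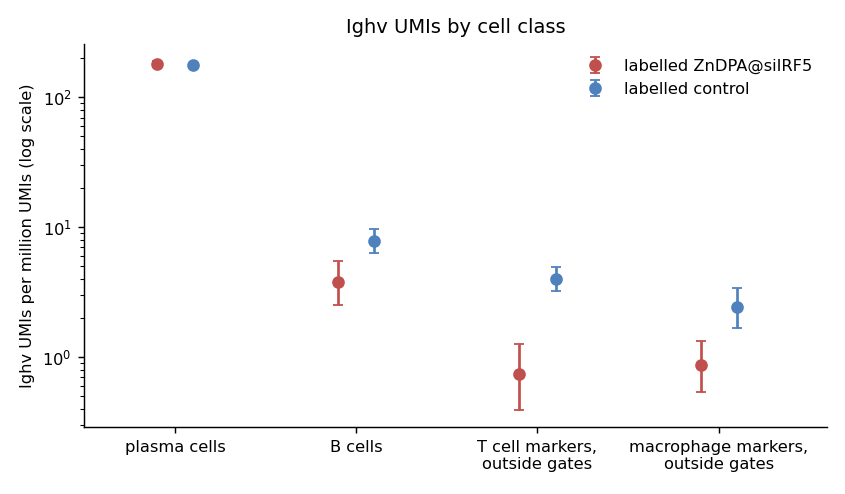
Ighv UMIs in CPM, on a log axis, in plasma cells, B cells and barcodes outside both gates with T cell or macrophage markers; points are the 2 libraries and bars exact 95% Poisson intervals. Plasma cells stood at 181 and 177 CPM, B cells at 3.81 and 7.88, and T cell marker barcodes at 0.734 and 4.02.

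Segments could therefore be assigned to plasma cells and not to B cells. A cell was given a dominant segment where it held at least 3 Ighv UMIs and at least 50% of them came from a single row. This gave 209 plasma cells in the treated and 687 in the control library, against 0 and 1 B cells. In plasma cells 69 rows had a UMI in the treated library and 84 in the control library, 57 in both and 96 in either. Functional segments made up 87 of those 96, and 9 of 70 pseudogenes had any UMI, with 0.403% and 0.509% of Ighv UMIs. The 26 functional segments with no UMI had a median of 79.1% windows unique to them, close to the 77.2% of the 87 detected.

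Ighv1-26 and Ighv14-4 were dominant in the most cells of the treated library under the rule used here. Ighv1-26 (chr12:114788372-114788805) was dominant in 31 of 209 cells (14.8%, 10.3 to 20.4) in the treated library and in 54 of 687 (7.86%, 5.96 to 10.1) in the control library. It was the only segment among the 5 most used of both libraries. Its share of Ighv UMIs was 10.5% and 6.15%, a log2 ratio of 0.78 (0.51 to 1.04). Ighv14-4 (chr12:114176438-114176867), of the small family 14, was dominant in 28 cells (13.4%, 9.09 to 18.8) and in 11 cells (1.60%, 0.802 to 2.85). Its UMIs made up 11.1% and 1.75% of all Ighv UMIs, a log2 ratio of 2.67 (2.31 to 3.04), and the most loaded cell held 5.18% and 8.33% of them. The difference was therefore spread over many cells. Without barcodes carrying markers of other cells, Ighv14-4 was dominant in 4 of 53 and 2 of 269 cells, and Ighv1-26 in 9 of 53 and 27 of 269, so that Ighv1-9, at 8 of 53, passed Ighv14-4. With dominance at 10 Ighv UMIs and 80%, Ighv1-26 was dominant in 0% of treated cells (0 to 7.87).

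Ighv1-9, Ighv1-53 and Ighv10-1 completed the 5 most used segments of the treated library. Ighv1-9 (chr12:114583569-114584002) was dominant in 16 cells (7.66%) there and in 10 cells (1.46%) of the control library, with a log2 ratio of UMI shares of 2.30 (1.86 to 2.75), and 3.73 (2.91 to 4.61) without barcodes carrying markers of other cells. Ighv10-1 (chr12:114479005-114479451), 1 of 2 functional members of its family, was dominant in 11 cells (5.26%) and 2 cells (0.291%), with a log2 ratio of 3.78 (3.03 to 4.61). That was the highest ratio among segments with at least 50 UMIs in a library. When barcodes carrying markers of other cells were left out, Ighv10-1 was dominant in 1 of 53 and 1 of 269 cells, with a log2 ratio of 2.06 (0.25 to 3.77), and the part of those markers in the result was not tested. Ighv1-53 was dominant in 13 cells (6.22%) and 18 cells (2.62%), with a log2 ratio of UMI shares of 0.50 (0.09 to 0.91). Ighv1-50 and Ighv1-69 were also among the highest 5 ratios, at 1.995 (1.46 to 2.54) and 1.97 (1.44 to 2.52), from few cells: 5 and 6 in the treated library, 7 and 8 in the control library. With barcodes carrying markers of other cells left out, the treated library kept 2 UMIs of Ighv1-50 and 0 of Ighv1-69, and the direction of Ighv1-69 turned. The log2 ratio of Ighv1-50 was then 0.30 (-2.95 to 2.58).

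The control library was led by Ighv1-81 (chr12:115920279-115920712), a segment near the far end of the locus. It was dominant in 2 of 209 cells (0.957%, 0.116 to 3.41) in the treated library and in 104 of 687 (15.1%, 12.5 to 18.0) in the control library. Its UMIs numbered 15 and 888, or 0.864% and 16.1% of Ighv UMIs, an 18.7-fold lower share in the treated library (log2 ratio -4.22, -5.07 to -3.49). In the control library the most loaded cell held 2.93% of these UMIs and 160 plasma cells held at least 1. Among segments with at least 50 UMIs in a library and a UMI in both, Ighv1-81 had the largest log2 ratio in size. Without barcodes carrying markers of other cells, it was dominant in 40 of 269 control cells, as was Ighv3-6, against 0 of 53 in the treated library.

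Ighv3-6, Ighv8-8 and Ighv1-55 were, with Ighv1-81 and Ighv1-26, the 5 most used segments of the control library. Ighv3-6 (chr12:114288152-114288582) was dominant in 7 cells (3.35%, 1.36 to 6.78) of the treated and 76 cells (11.1%, 8.82 to 13.7) of the control library, with a log2 ratio of UMI shares of -1.48 (-1.88 to -1.11). Ighv8-8 (chr12:115294062-115294504) was dominant in 4 cells (1.91%) and 41 cells (5.97%), with a log2 ratio of -1.25 (-1.66 to -0.86). A single cell held 44.3% of its UMIs in the treated library, so the UMI share there rests largely on that cell. Without barcodes carrying markers of other cells it had 1 and 191 UMIs, a log2 ratio of -5.10 (-10.4 to -2.61). Ighv1-55 (chr12:115208095-115208591) was dominant in 2 cells (0.957%) and 35 cells (5.09%), with a log2 ratio of -2.50 (-3.39 to -1.73). Among the lowest ratios, 2 segments had no UMI in plasma cells of the treated library, Ighv1-42 with 121 UMIs in the control library and Ighv1-66 with 102. With the count of 0 set to a floor of 3 UMIs in the library, their shares were 12.7-fold and 10.7-fold lower. The upper limits of the log2 ratio were -3.35 for Ighv1-42 and -3.10 for Ighv1-66. Ighv1-19 had 3 and 98 UMIs (log2 ratio -3.37, -5.67 to -1.78) and Ighv1-72, the close copy of Ighv1-62-3, had 2 and 68 (-3.42, -6.50 to -1.52). Without barcodes carrying markers of other cells, neither interval lay below 0: Ighv1-19 had 2 and 29 UMIs (-1.38, -4.50 to 0.60) and Ighv1-72 had 0 and 20 (-0.26 by the floor, upper limit 0.17). Ighv1-42 with 0 and 50 UMIs and Ighv1-66 with 0 and 55 were then at -1.59 and -1.72 by the floor. Their upper limits were -1.23 and -1.38. The plot of the 20 most used segments shows both sets side by side.

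**Figure D2:**
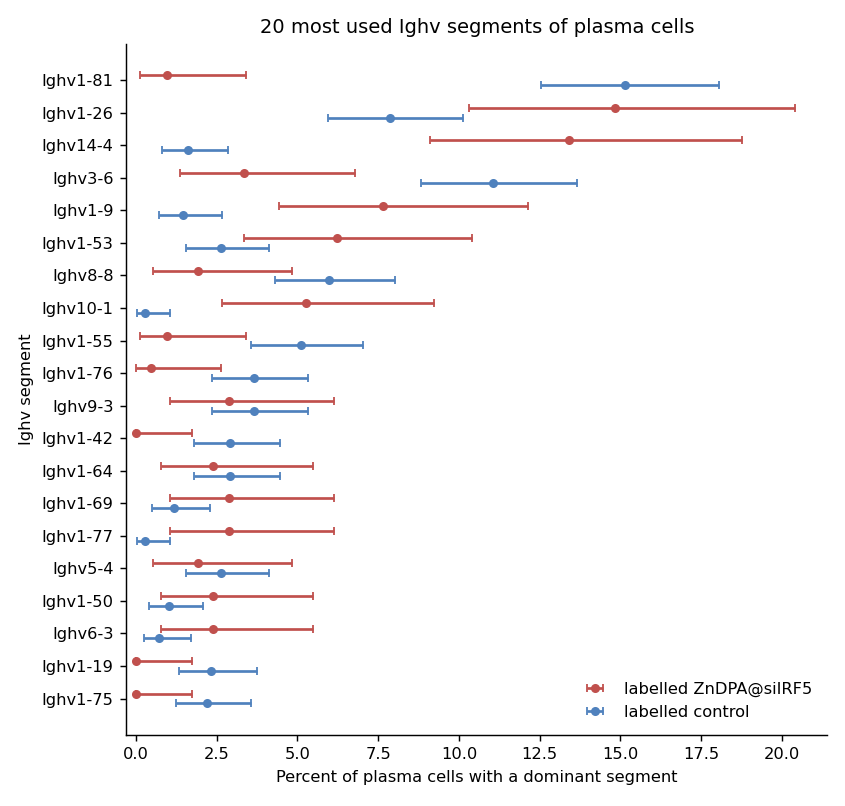
Share of plasma cells with a dominant segment, in percent, for the 20 segments with the highest share in a library; points are the 2 libraries (209 and 687 cells) and bars exact 95% Clopper-Pearson intervals. Ighv1-81 stood at 0.957% against 15.1%, Ighv14-4 at 13.4% against 1.60%, and Ighv1-26 was high in both libraries.

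The Ighv rows were set beside all rows of the tables. In plasma cells 11369 rows had at least 50 UMIs over both libraries, and 3.89% of them were at least 2-fold higher and 2.95% at least 2-fold lower in CPM in the treated library. Of the 34 Ighv rows among them, 10 were at least 2-fold higher and 14 at least 2-fold lower, while their median log2 ratio was -0.01 against -0.05 over all rows. The Ighv rows thus went both ways around a median near 0. In B cells 1.43% of 10898 rows were at least 2-fold higher and 1.14% at least 2-fold lower, and no Ighv row reached 50 UMIs there. Cells of a clone share their segment, so the rows are not independent measures.

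Counted over cells of all isotypes together, usage was about as concentrated in both libraries, although on different segments. The 5 most used segments took 47.4% of cells in the treated and 45.1% in the control library, and the 10 most used took 61.7% and 60.8%. A random pair of cells had the same dominant segment in 5.74% and 5.60% of cases. Split by constant gene, the libraries differed in opposite directions. Such pairs made up 11.9% and 9.19% among Ighm cells, and 3.82% and 7.37% among switched cells. Over raw Ighv UMIs the control library was the more concentrated, with 37.02% (34.7 to 39.3) and 45.7% (44.3 to 47.0) in the 5 most used segments. With equal weight per cell the order turned, at 50.5% (45.1 to 55.8) and 41.3% (38.4 to 44.2). Without the top cell of each segment the UMI shares were 50.6% (47.6 to 53.5) and 51.9% (50.4 to 53.3). With dominance at 10 UMIs and 80%, the 5 most used took 42.2% (27.7 to 57.8) and 62.7% (53.9 to 70.9) of cells. The treated library used 48 segments and the control library 62, but 46.8 were expected from the control library at 209 cells. Of all dominant segments 38 were found in both libraries, covering 194 of 209 and 545 of 687 cells, 10 in the treated library alone (15 cells) and 24 in the control library alone (142 cells).

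Along the locus, the treated cells lay nearer the middle and the control cells nearer the far end. The 185 rows were cut into 5 groups of 37 in order from the D segments. The middle group, which holds Ighv10-1, Ighv1-9, Ighv1-19 and Ighv1-26, was dominant in 29.7% (23.6 to 36.4) of treated and 14.99% (12.4 to 17.9) of control cells. The group farthest from D, which holds Ighv1-66, Ighv1-72 and Ighv1-81, was dominant in 15.3% (10.7 to 20.9) and 32.2% (28.7 to 35.8). Without Ighv1-81 the farthest group took 14.5% (9.997 to 20.04) and 20.1% (16.9 to 23.6), with overlapping intervals. The intervals also overlapped without barcodes carrying markers of other cells, at 20.8% (10.8 to 34.1) and 33.1% (27.5 to 39.1). The nearest group took 14.4% and 9.75%, the next 26.3% and 21.4%, and the group before the last 14.4% and 21.7%. The plot of segments in locus order shows that these differences come from a few tall bars.

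**Figure D3:**
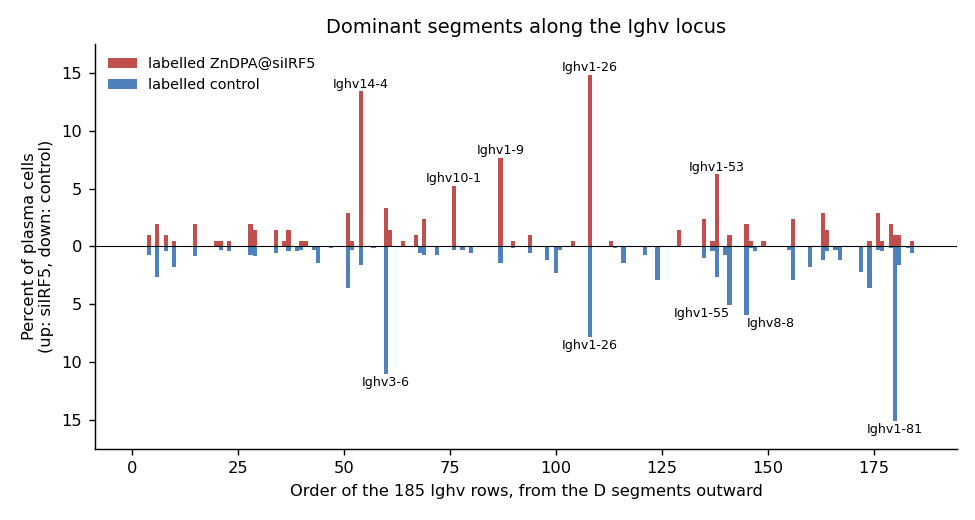
Share of plasma cells with each segment as the dominant one, in percent, by the order of the 185 rows from the D segments; bars point up for the treated and down for the control library. Ighv14-4, Ighv10-1 and Ighv1-9 stand out upward, Ighv3-6 and Ighv1-81 downward, and Ighv1-26 in both directions.

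By family, Ighv1, the largest with 53 functional members, was dominant in 50.7% (43.7 to 57.7) of treated and 62.2% (58.4 to 65.8) of control cells. The intervals of these 2 shares did not overlap. The interval of their log2 ratio held 0 (-0.29, -0.61 to 0.02), but it is too wide for shares this large. It treats the cells of the family as counts with no upper limit. Without Ighv1-81 the shares were 50.2% and 55.4%, and without barcodes carrying markers of other cells 60.4% (46.0 to 73.5) and 62.5% (56.4 to 68.3). Family 14 took 14.4% and 3.35%, family 3 took 3.83% and 11.2%, and family 10 took 5.26% and 0.291%. Ighv14-4 made up 28 of the 30 treated and 11 of the 23 control cells of family 14, and Ighv3-6 made up 76 of the 77 control cells of family 3. Families 5, 8 and 9 took 8.13% and 7.13%, 3.35% and 6.40%, and 4.31% and 3.78%, with overlapping intervals.

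Most plasma cells held UMIs of a single segment. Among cells with at least 3 Ighv UMIs, all of them came from 1 row in 176 of 209 (84.2%, 78.5 to 88.9) treated and 584 of 688 (84.9%, 82.0 to 87.5) control cells. A second segment with at least 20% of the UMIs was present in 16 (7.66%) and 59 (8.58%). At 10 or more Ighv UMIs the share was 2 of 47 (4.26%) and 7 of 140 (5%). None of these 9 deeper cells was a Scrublet doublet call. Scrublet called fewer barcodes than expected (5.20% and 4.26% against 10.5% and 10.0%), and like cells sharing a droplet can escape it. Whether these 9 barcodes held more than 1 plasma cell was not tested. Ighv1-81 was 1 of the 2 segments in 4 of the 7 control cells, with Ighv1-82, Ighv1-80, Ighv1-34 and Ighv1-54, to which it was 86.1% to 90.1% identical over the last 290 bases. The most even cell held 22 UMIs of Ighv5-4 and 21 of Ighv9-3, which were 63.1% identical.

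Segment and isotype went together. The isotype of a cell was its largest constant gene with at least 3 UMIs. Ighm was the largest in 273 plasma cells (54.9%) of the treated and 544 (34.8%) of the control library, Ighg2c in 70 (14.1%) and 446 (28.5%), Ighg2b in 58 (11.7%) and 316 (20.2%), and Igha in 60 (12.1%) and 65 (4.15%). A dominant segment was found less often in Ighm cells (35.2% and 29.8%) than in Ighg2b cells (55.2% and 55.1%), and in 53.3% and 44.6% of Igha cells and 58.6% and 54.7% of Ighg2c cells, so these switched classes weigh more in segment counts. In the treated library the share was lower in Ighg1 cells (7 of 29, 24.1%) and Ighg3 cells (1 of 6, 16.7%), against 43.3% and 36.5% in the control library. In the control library 103 of 104 Ighv1-81 cells were switched, 50 to Ighg2c, 39 to Ighg2b, 12 to Igha and 2 to Ighg1. Ighv3-6 was switched in 70 of 76 control cells over 6 constant genes, Ighv8-8 in 39 of 41 and Ighv1-55 in 34 of 35. Ighv1-26 was the reverse, with Ighm in 26 of 31 treated and 41 of 54 control cells. Ighv14-4 held 14 Ighm and 14 Ighg2c cells in the treated library and 10 Ighm cells of 11 in the control library. Ighv10-1 was Ighm in 10 of 11 treated cells and Ighv1-9 in 12 of 16. The plot of isotype by segment shows these makeups.

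**Figure D4:**
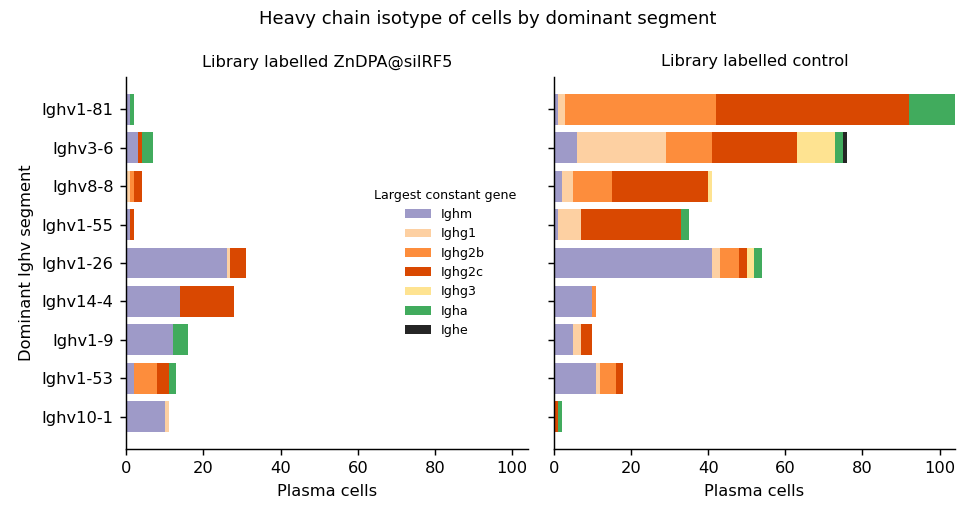
Number of plasma cells by dominant segment, coloured by the largest constant gene, in the library labelled ZnDPA@siIRF5 and the library labelled control. Control cells of Ighv1-81, Ighv3-6, Ighv8-8 and Ighv1-55 were mostly IgG, and Ighv1-26 cells were mostly Ighm in both libraries.

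Within an isotype class, counted over cells, some differences between the libraries lay within counting error and others did not. Among Ighm cells Ighv1-26 was dominant in 26 of 96 (27.1%, 18.5 to 37.1) treated and 41 of 162 (25.3%, 18.8 to 32.7) control cells, with a log2 ratio of 0.10 (-0.67 to 0.84), beside a higher share of Ighm cells in the treated library overall. Ighv14-4 took 14 of 96 (14.6%) and 10 of 162 (6.17%) Ighm cells, but 14 of 81 (17.3%, 9.78 to 27.3) and 1 of 495 (0.202%, 0.00511 to 1.12) IgG cells. Ighv1-81 took 0 of 81 IgG cells in the treated library, which allows up to 4.45%, and 91 of 495 (18.4%, 15.1 to 22.1) in the control library, and 1 of 32 and 12 of 29 IgA cells. Ighv3-6 took 1 of 81 and 67 of 495 IgG cells and did not differ beyond counting error among Ighm cells (3 of 96 and 6 of 162). Ighv8-8 and Ighv1-55, low in the treated library over all isotypes, took 4 of 81 and 39 of 495 and 1 of 81 and 32 of 495 IgG cells. Both log2 intervals over cells held 0 (-0.67, -2.62 to 0.80, and -2.39, -7.74 to 0.19). Over Ighv UMIs of IgG cells both intervals lay below 0 (-0.55, -0.97 to -0.15, and -2.31, -3.46 to -1.36). Ighv10-1 took 10 of 96 Ighm cells in the treated library and 0 of 162 in the control library. Ighv1-53 took 9 of 81 and 7 of 495 IgG cells (log2 ratio 2.97, 1.38 to 4.63). It took 2 of 96 and 11 of 162 Ighm cells, where the interval over cells held 0 (-1.70, -4.92 to 0.49). Over Ighv UMIs of Ighm cells its log2 ratio was -3.02 (-4.27 to -1.99). Ighv1-9 took 12 of 96 and 5 of 162 Ighm cells and 0 of 81 and 5 of 495 IgG cells. A random pair of cells shared its segment in 11.9% and 9.19% of cases among Ighm cells and in 5.80% and 7.05% among IgG cells.

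The segments known from natural antibodies of B-1 cells were rare. Ighv11-2 and Ighv12-3, used by antibodies to phosphatidylcholine, were dominant in 0 treated cells and in 2 and 4 control cells, and the 4 Ighv12-3 cells were all Ighm. A count of 0 among 209 cells allows a share of up to 1.75%. Ighv7-1, used by antibodies to phosphorylcholine, was dominant in 3 (1.44%) and 4 (0.582%) cells. Its UMIs numbered 22 and 31, and a single cell held 63.6% and 48.4% of them. Without barcodes carrying markers of other cells Ighv7-1 had 0 and 5 UMIs. Of the B-1 markers Bhlhe41 had a UMI in 41.2% and 43.7% of plasma cells, Cd5 in 3.22% and 3.77%, Cd9 in 61.6% and 53.0%, Spn in 34.2% and 37.6%, and Zbtb32 in 5.03% and 4.66%. These genes are not particular to B-1 cells.

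Heavy and light V segments were paired within cells to see whether cells of the same segment also shared a light chain. Over Igkv and Iglv rows together, the row Iglv1 was the dominant light segment in 70.9% of 182 treated and 80.3% of 623 control paired cells. High counts of this row lay in cells rich in kappa chains: the 110 and 388 plasma cells with over 50 Iglv1 UMIs had a median of 9973 and 8654 UMIs of Igkc, the kappa constant gene, against 3 and 2.5 of Iglc1, a lambda constant gene. The 20 and 58 cells with more Iglc1 than Igkc had a median of 14.5 and 20.5 Iglv1 UMIs, against 8 and 14 in the rest. The largest pairs over both kinds of row, Ighv14-4 with Iglv1 (24 of 182 treated cells) and Ighv1-81 with Iglv1 (74 of 623 control cells), therefore say little of the light chain. Pairs were recounted over Igkv rows alone, a choice made after the Iglv1 row had been seen, in 184 treated and 589 control cells.

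With Igkv rows alone, most of the leading heavy segments had a frequent light partner. Ighv1-81 went with Igkv1-110 in 70 of its 102 control cells, 59 of them IgG and 11 IgA, and in 1 treated cell, which was IgA. Ighv1-26 went with Igkv4-91 in 21 of 31 treated cells, all Ighm, and in 32 of 49 control cells, 30 of them Ighm. This was the pair most frequent in the treated library (11.4%, 7.21 to 16.9) and the second most frequent in the control library (5.43%, 3.75 to 7.58). Ighv14-4 split by isotype: 14 treated and 6 control cells with Igkv6-20 were all Ighm, while the 9 treated cells with Igkv8-30 were all IgG and no control cell had that pair. Ighv3-6 was more varied, with Igkv3-4 in 25, Igkv8-24 in 13 and Igkv15-103 in 12 of 66 control cells, all IgG. So was Ighv1-53, whose most frequent partner was Igkv12-44 in 3 of 11 treated cells and Igkv3-2 in 5 of 14 control cells. Ighv8-8 with Igkv9-120 (27 of 34 cells) and Ighv1-55 with Igkv1-117 (18 of 35 cells) were seen in the control library only. The treated library had just 2 paired cells of each of these heavy segments. Ighv1-9 with Igkv12-46 (11 of 15 cells) and Ighv10-1 with Igkv1-135 (10 of 11 cells) were seen in the treated library only, all Ighm. The control library had 9 paired cells of Ighv1-9 and 2 of Ighv10-1. Where only 2 cells held the heavy segment, the absence of a pair says little. Of 289 pairs 10 were found in both libraries, which is 10 of 92 treated and 10 of 207 control pairs, and these held 44 of 184 and 140 of 589 cells. Of the 92 and 207 pairs, 70 and 140 were seen in only 1 cell of that library. Of 33 pairs with at least 5 cells in a library, 6 were found in both. These held 40 of the 86 treated and 135 of the 349 control cells of such pairs. The counts hold no junction sequence, so cells of the same pair need not be the same clone.

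**Figure D5:**
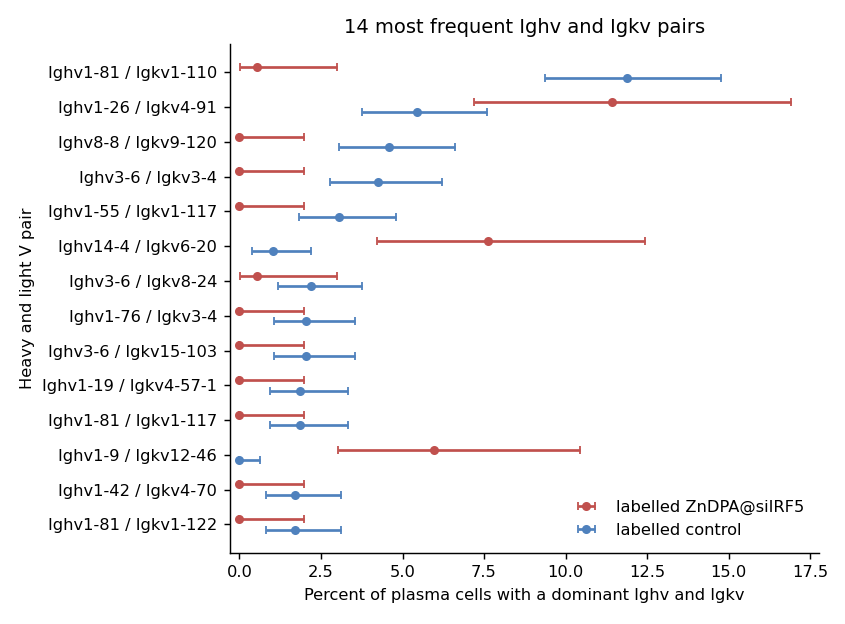
Share of plasma cells with a dominant Ighv and a dominant Igkv segment, in percent, for the 14 most frequent pairs; points are the 2 libraries (184 and 589 cells) and bars exact 95% Clopper-Pearson intervals. Ighv1-26 with Igkv4-91 was frequent in both libraries, at 11.4% and 5.43%, while Ighv1-81 with Igkv1-110 stood at 0.543% and 11.9%.

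Genes of the heavy chain pathway were read in the same plasma cells. Of the 8 constant genes, Ighm (log2 ratio of CPM 0.72) and Igha (1.42) were higher in the treated library. The IgG genes Ighg1, Ighg2b, Ighg2c and Ighg3 were lower (-0.68, -1.18, -0.95 and -1.26), and Ighd did not differ beyond counting error (0.02, -0.56 to 0.56). Ighe had 72 and 2999 UMIs, but a UMI in only 1.21% and 2.24% of plasma cells. It was the largest constant gene in 0 treated and 3 control cells, so its difference may rest on very few cells. Ung, a glycosylase that removes uracil from DNA, stood at 7.18 and 12.5 CPM (-0.80, -1.19 to -0.42). Rag1 and Rag2, which cut at V, D and J segments, had 4 and 1 and 0 and 2 UMIs, and Dntt, which adds bases at the junction, 4 and 4. The octamer factors of V promoters differed little, with log2 ratios of -0.14 (-0.32 to 0.05) for Pou2f1 and 0.05 (-0.07 to 0.16) for Pou2f2, while their coactivator Pou2af1 was at 225 and 316 CPM (-0.49, -0.56 to -0.42). The plasma cell regulators Prdm1, Irf4 and Xbp1 had log2 ratios of -0.30, -0.25 and -0.07.

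Ighv UMIs outside plasma cells followed those of the plasma cells of the same library in part. In barcodes outside both gates, 28 of 58 treated UMIs (48.3%, 35.0 to 61.8) and 83 of 158 control UMIs (52.5%, 44.4 to 60.5) fell on the 10 segments with most plasma cell UMIs, which held 57.1% and 61.7% in plasma cells. The 3 leading outside segments of the control library were Ighv8-8 with 24 UMIs, Ighv1-81 with 18 and Ighv3-6 with 13. In the treated library Ighv1-26 led with 8, followed by Ighv5-9 and Ighv1-82 with 5 each and Ighv1-64 and Ighv8-12 with 4 each. Of these, Ighv5-9, Ighv1-82 and Ighv8-12 are not among the 10, and Ighv14-4, second by plasma cells with a dominant segment, is not among the 5 leading outside. In B cells those 10 segments held 8 of 28 (28.6%, 13.2 to 48.7) and 39 of 91 UMIs (42.9%, 32.5 to 53.7). In both libraries the B cell interval lay below the plasma cell share, and no segment had over 8 UMIs in B cells of either library, so usage in B cells was not resolvable at this depth.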

How the data were processed

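The libraries used a 10x Genomics 3′ kit, per the labels. The submitters' processing notes name mm10, Seurat 4.4.0 and Cell Ranger 3.1.0, while per the file headers Cell Ranger 7.2.0 wrote the matrices. The deposited values are UMI counts per row and barcode. The sources used here do not state if introns were counted. Members, lists and alternatives were chosen with earlier results of these data known. Counts were summed per library and class (Python 3.11.15, numpy 2.4.6, scipy 1.17.1, pandas 2.3.3). CPM used all UMIs of the class. Sums have exact Poisson, shares exact Clopper-Pearson and ratios exact conditional binomial intervals at 95%. The ratio interval, the dominance rule and the formula for equal cells were tested on simulated data. A ratio against a count of 0 used a floor of 3 counts, which is a set value and not a 95% limit. Numbers of segments at equal cells and shares in cells thinned to 2000 UMIs came from exact formulas, in place of the repeated draws first planned. Doublets were called with Scrublet (scanpy 1.11.5), which marked 684 and 533 barcodes against 10.5% and 10.0% expected, and were left in except in an alternative. Identities came from edlib alignments. Named segments are, by rule, the 5 most used per library, the 5 highest and 5 lowest ratios of UMI share with at least 50 UMIs in a library, those of the largest pairs, and 3 natural antibody segments, 18 in all; B cells added none. Ighv promoters and recombination signals were not analysed here. A gene of the pathway list is not reported here.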

Additional observations from a re-analysis of the deposited data

How the results depend on the processing

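No paired analysis was possible because each group has 1 library. Of 122 recomputed values of the main results, 97 stayed within counting error or 1.5-fold and 25 moved. The alternatives of at least 1000 genes and at most 10% mitochondrial UMIs kept all 209 and 687 cells with a dominant segment. Shares over those cells could not change there, and they count among the 97. The log2 ratio of Ighv CPM in plasma cells became -0.72 without barcodes in both gates, which leaves 33 and 32 plasma cells, 3 and 6 of them with a dominant segment, so no usage was computed there. Without barcodes carrying 3 UMIs of markers of other cells (53 and 269 cells with a segment left), the B cell ratio was -0.37, the Ighv1 family 60.4% of treated cells (62.5% of control cells) and the control top 5 49.1%. With dominance at 10 UMIs and 80%, Ighv1-26 was at 0% of treated cells, Ighv1-81 at 21.6% of control cells, same-segment pairs at 3.54% and 9.27%, the Ighv1 family at 35.6% and 50%, the farthest 37 rows at 22.2% of treated cells, the control top 5 at 62.7% and the largest control pair at 22.5%. Without the top cell of each segment, the top 5 took 58.6% and 49.1%. At 10 Ighv UMIs a second segment was seen in 4.26% and 5% of cells. Without Ighv1-81, an alternative chosen after seeing the data, control cells had 55.4% in the Ighv1 family and 20.1% in the farthest 37 rows. At 20 UMIs 697 (5.32%) of 13090 rows were 2-fold higher and 595 (4.55%) lower, beside 15 and 21 of 53 Ighv rows. At 200 UMIs the counts were 173 (2.01%) and 159 (1.85%) of 8609 rows, beside 1 and 4 of 9 Ighv rows. Ighv12-3, whose main interval held 0, was not counted as a change of direction. Its log2 ratio went from -0.21 to 0.08 with gates of 100 and 5 UMIs and to 0.11 with equal weight per cell. The other 171 recomputed values were of single segments and of the top 5 share of Ighv UMIs. Of these 171, 6 changed direction from a main interval that lay clear of 0. Without barcodes carrying markers of other cells this was Ighv1-69 (-0.64 by the floor, upper limit -0.24). Within Ighm cells these were Ighv1-50 (-1.83 by the floor, upper limit -1.39), Ighv1-53 (-3.02), Ighv1-55 (0.49) and Ighv1-69 (-1.25 by the floor, upper limit -0.72). Within IgG cells it was Ighv1-9 (-0.72). Both isotype classes were chosen after seeing the data. The cause of these changes was not tested. Depth limits usage to the plasma cells with at least 3 Ighv UMIs, 42.1% and 44.0% of them.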

Other observations

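Further segments outside the naming rule, chosen after their values were seen, had pairs of their own. Ighv1-76 was dominant in 1 treated and 25 control cells, 15 of the latter Ighm, and 12 of the 25 went with Igkv3-4, all Ighm. Igkv3-4 was thus the partner of Ighm cells with Ighv1-76 and of IgG cells with Ighv3-6. Ighv1-77 was dominant in 6 treated cells (2.87%) and 2 control cells (0.291%), and all 5 treated cells with a dominant Igkv segment went with Igkv1-117 and were IgG. Ighv9-3 was used in both libraries, in 6 (2.87%) and 25 (3.64%) cells, and went with Igkv1-135 in 2 and 9 of them. Ighv1-75 was dominant in 0 treated and 15 control cells, 14 of them switched.

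In B cells, where Ighv usage could not be read, the constant gene Ighg3 had 163 UMIs in the treated library and 8201 in the control library (22.2 and 710 CPM), a log2 ratio of -5.001 (-5.23 to -4.78), and a UMI in 6.199% and 13.9% of cells.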
